A study of Arabidopsis thaliana with 8 samples.

Results

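Aquaporins are the channel proteins that let water, and in some cases small uncharged solutes, cross plant membranes. Their transcript levels were compared across 8 RNA-Seq libraries of whole Arabidopsis thaliana seedlings, each library standing for 1 condition with no replicate. The family was taken as 35 loci of the PIP, TIP, NIP and SIP groups, found in the 26987 entries of each deposited table by their locus tag. Only 14 of the 35 were found this way, namely 3 of 5 PIP1, 5 of 8 PIP2, 4 of 10 TIP, 1 of 9 NIP and 1 of 3 SIP members. The other 21 carry a semicolon in their RefSeq symbol and had no entry of their own tag. For 12 of those, an entry named by the part of the symbol before the semicolon lay at the member's position, and these entries are described apart from the 14. TIP2-3 lay under another member's entry, and 8 members (PIP1-4, PIP2-5, PIP2-8, TIP1-3, TIP2-2, NIP4-1, SIP1-2 and SIP2-1) had no entry under an aquaporin name at their position and were not analysed here.

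The seedlings of interest were DAYi plants, in which an RNAi construct against DAY (AT3G51140, a chaperone-like protein with a DnaJ-like domain) is switched on by dexamethasone (DEX), grown with 1 µM DEX, and bri1-116 plants, which carry a null allele of the brassinosteroid receptor BRI1. They were set against DAYi plants given ethanol (EtOH) and against Col-0 wild type. Each of these 4 was sampled once as light-grown seedlings of 9 days and once as dark-grown seedlings of 5 days, so that light and age cannot be told apart. The DAYi titles carry the numbers 25 for DEX and 3 for EtOH, which no label explains, so a difference of line or plate cannot be told apart from DEX. Title and genotype fields contradict each other for the dark bri1-116 and Col-0 libraries, which are called here by their titles, and the light-grown bri1-116 sample carries an unexplained "new" in its title. All seedlings were whole and of the Col-0 ecotype, so that no organ can be told apart.

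The BRI1 transcript stood at 33.3 FPKM in light-grown bri1-116 against 58.1 FPKM in light-grown Col-0, and at 42.5 FPKM in the dark library titled bri1-116 against 70.6 FPKM in the one titled Col-0. FPKM is fragments per kilobase of transcript, scaled for the depth of the library, so levels can be set side by side between genes. Over 16815 entries of at least 1 FPKM in all 8 libraries, the median ratio of a library to their geometric mean was 0.973 (light EtOH) to 1.03 (dark EtOH). The deposited values thus already lay close to a median-ratio scaling. DAY stood at 6.88 FPKM in light-grown DAYi with DEX against 56.9 FPKM with EtOH, but in the dark at 34.8 FPKM in the library labelled DEX against 13.4 FPKM in the one labelled EtOH. The DAY transcript thus goes against the label in the dark, and each dark DAYi direction given here is that of the library labelled DEX. AT2G01021 alone took between 1.51% and 28.6% of the summed FPKM of a library. With 1 library per condition no difference has a replicate error and no test was made, so a member is described as beyond 2-fold or not, beside the share of all entries beyond 2-fold. Depth was not read from the tables directly. From the steps of low values it was estimated at 43 (light Col-0) to 106.5 (light bri1-116) fragments per FPKM and kilobase, and at this depth each of the 108 member values of at least 5 FPKM rests on an estimated 466 fragments or more, a counting error of at most 4.63%. That error covers counting only.

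Plasma membrane intrinsic proteins (PIP1 and PIP2) and tonoplast intrinsic proteins (TIP) are the main water channels of the cell surface and of the vacuole. PIP1 proteins of maize need a PIP2 partner to reach the plasma membrane. NOD26-like intrinsic proteins (NIP) carry solutes such as boric acid, arsenite and glycerol, and small basic intrinsic proteins (SIP) sit in the endoplasmic reticulum. Most have a pore lined by paired NPA motifs. In seedlings, water uptake through these channels accompanies the cell expansion that brassinosteroids and darkness promote in the hypocotyl.

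Sequence closeness limits how far single members can be told apart in short reads. Over 162 pairs within a subfamily, RefSeq coding sequences (TAIR10.1) shared an unbroken run of 50 or more bases in 2 pairs only, and 31 of 35 members held no 50-base stretch of another member. The closest pair was PIP2-2 (AT2G37170, chr2:15613368-15615022, minus strand) and PIP2-3 (AT2G37180, chr2:15617635-15619155, plus strand), neighbours that lie back to back with 2612 bases between them. Their 858 aligned coding bases differed at 45 positions. Of the 50-base stretches, 27.1% of those of PIP2-2 and 31.4% of those of PIP2-3 were found in the other gene. The other pair, NIP4-1 and NIP4-2, shared 74 bases.

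The longest run that PIP2-2 and PIP2-3 share is shown because reads from it cannot be given to either gene. It is 242 coding bases long, lies over exons within chr2:15614255-15614617 on the minus strand in PIP2-2 and within chr2:15617953-15618315 on the plus strand in PIP2-3, and holds the codons of the first NPA motif, set in capitals.
PIP2-2 and PIP2-3: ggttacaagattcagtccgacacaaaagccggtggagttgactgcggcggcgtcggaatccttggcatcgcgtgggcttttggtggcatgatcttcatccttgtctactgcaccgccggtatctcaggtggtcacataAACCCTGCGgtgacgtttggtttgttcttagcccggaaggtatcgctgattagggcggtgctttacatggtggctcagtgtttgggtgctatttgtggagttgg

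The 60-base coding window in which they differ most begins inside the end of that run, and is shown because such stretches are where the 2 levels can be separated. Capitals mark the 10 differing bases, at chr2:15614198-15614257 (minus strand) for PIP2-2 and chr2:15618313-15618372 (plus strand) for PIP2-3.
PIP2-2: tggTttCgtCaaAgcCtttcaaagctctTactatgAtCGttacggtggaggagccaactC
PIP2-3: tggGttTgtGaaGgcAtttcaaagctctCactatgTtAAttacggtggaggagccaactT

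The order of the levels was led by the same entry in every library. It is named TIP2 and tagged AT3G26520 (TIP1-2), yet its coordinates, chr5:19248249-19249504, are those of TIP2-3 (AT5G47450), and TIP2-2, TIP2-3 and AT3G26520 all bear the name TIP2 before any semicolon. Its value may therefore join several tonoplast aquaporins, and family and TIP sums are also given without it. It stood at 1423 FPKM in light DEX against 1920 FPKM in light EtOH, and at 1368 FPKM in light bri1-116 and 2385 FPKM in light Col-0. In the dark it stood at 2942 FPKM in the library labelled DEX against 5867 FPKM in that labelled EtOH, and at 2654 FPKM in dark bri1-116 and 4404 FPKM in dark Col-0. It was below its control in all 4 comparisons, by 1.35-fold to 1.99-fold. It ranked 4th of all entries in dark EtOH seedlings and 59th in light EtOH seedlings. Between 9 and 11 of the 14 members were above 100 FPKM in each library.

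**Figure D1:**
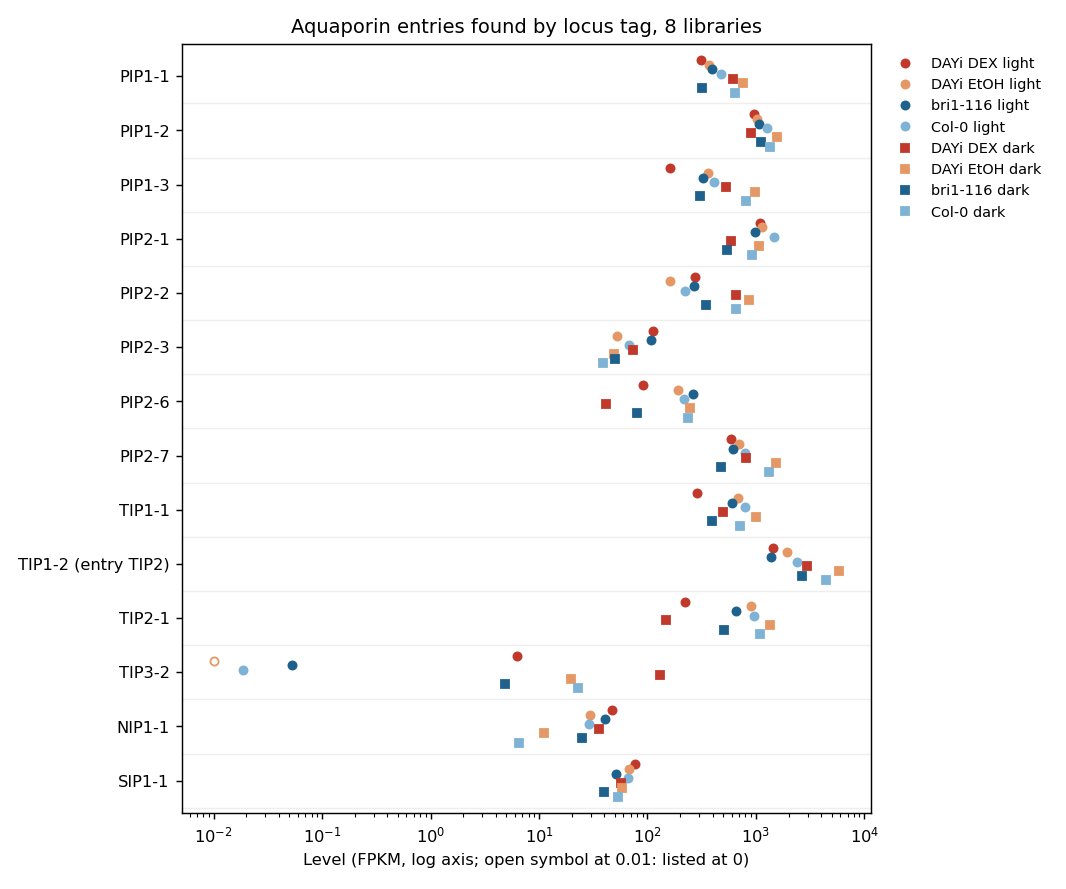
Level of each of the 14 aquaporin entries (FPKM, log axis) in the 8 libraries, circles for light and squares for dark, 1 symbol per library with no replicate. The TIP2 entry lies farthest right in each library (1368 to 5867 FPKM), whereas TIP3-2 runs from 0 to 130 FPKM. Open symbols at the left edge are values listed at 0.

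Among the plasma membrane members, PIP1-2 (AT2G45960), a major contributor to rosette and root water conductance, and PIP2-1 (AT3G53420), a phosphorylated channel of root and leaf, were the most abundant in light-grown seedlings. PIP1-2 stood at 966 and 1015 FPKM in light DEX and EtOH seedlings and at 1055 and 1258 FPKM in light bri1-116 and Col-0. In the dark it stood at 899 and 1561 FPKM in the DEX and EtOH libraries, and at 1111 and 1339 FPKM in bri1-116 and Col-0. It varied least of all 14 members, 1.74-fold between its lowest and its highest library. PIP2-1 stood at 1087 and 1136 FPKM in light DEX and EtOH seedlings and at 971 and 1453 FPKM in light bri1-116 and Col-0. In the dark it stood at 586 and 1076 FPKM in the DEX and EtOH libraries, and at 538 and 915 FPKM in bri1-116 and Col-0. PIP2-1 was thus higher in the light library of all 4 pairs.

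PIP1-1, PIP2-7 and PIP1-3 were higher in both dark controls than in the 6 other libraries. PIP1-1 (AT3G61430) stood at 311 and 367 FPKM in light DEX and EtOH seedlings, at 396 and 476 FPKM in light bri1-116 and Col-0, and at 619 and 764 FPKM in dark DEX and EtOH seedlings. PIP2-7 (AT4G35100) stood at 583 and 699 FPKM in light DEX and EtOH seedlings, at 617 and 795 FPKM in light bri1-116 and Col-0, and at 810 and 1517 FPKM in dark DEX and EtOH seedlings. PIP1-3 (AT1G01620) stood at 328 and 411 FPKM in light bri1-116 and Col-0, and at 532 and 975 FPKM in dark DEX and EtOH seedlings. Their remaining values are given with the comparisons in which they passed 2-fold.

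SIP1-1 (AT3G04090), the only SIP entry found, stood at 76.2 and 67.5 FPKM in light DEX and EtOH seedlings and at 51.2 and 66.4 FPKM in light bri1-116 and Col-0. In the dark it stood at 56.7 and 57.6 FPKM in the DEX and EtOH libraries, and at 39.7 and 53.0 FPKM in bri1-116 and Col-0. It was not beyond 2-fold in any comparison. NIP1-1 (AT4G19030, named NLM1), a NIP expressed chiefly in roots, kept between 6.52 FPKM (dark Col-0) and 47.0 FPKM (light DEX).

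Summed over the family, aquaporin transcripts were lowest in light-grown DAYi with DEX, at 5644 FPKM, and highest in dark-grown EtOH seedlings, at 15361 FPKM. Both dark controls stood far above the 6 other libraries as a share of all FPKM, with 1.59% in EtOH and 1.53% in Col-0, against 0.608% to 0.731% elsewhere. The total includes AT2G01021, which took 28.6% in dark DEX, 15.8% in dark EtOH and 13.5% in dark bri1-116. That entry took 5.23% in dark Col-0 and 1.51% to 4.39% in the light libraries. Shares of the family without it were not computed. The family sum was 8025 FPKM in dark DEX against 15361 FPKM in dark EtOH, and 6844 FPKM in dark bri1-116 and 12265 FPKM in dark Col-0. It was 5644 FPKM in light DEX against 7585 FPKM in light EtOH, and 6720 FPKM in light bri1-116 and 9137 FPKM in light Col-0. The ratio of the sums was 0.744 for light DAYi, 0.522 for dark DAYi, 0.735 for light bri1-116 and 0.558 for dark bri1-116. Without the TIP2 entry these ratios were 0.745 for light DAYi, 0.535 for dark DAYi, 0.793 for light bri1-116 and 0.533 for dark bri1-116. In the light, the family differed less as a share of all FPKM than as a sum. It took 0.608% in light DEX against 0.637% in light EtOH, and 0.713% in light bri1-116 against 0.731% in light Col-0.

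The subfamilies did not share the difference in summed FPKM equally. The 3 other TIP entries summed to 513 FPKM in light DEX seedlings against 1585 FPKM in EtOH, and to 777 FPKM in dark DEX against 2370 FPKM in EtOH. PIP2 summed to 2147 FPKM in light DEX against 2243 FPKM in EtOH, and to 2163 FPKM in dark DEX against 3756 FPKM in EtOH. PIP1 summed to 1438 FPKM in light DEX against 1740 FPKM in EtOH, and to 2050 FPKM in dark DEX against 3300 FPKM in EtOH. In light DAYi seedlings the PIP2 sum was thus within 1.04-fold of its control, whereas in the dark PIP1 was 1.61-fold and PIP2 1.74-fold lower.

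The TIP entries other than TIP2 summed to 1252 FPKM in light bri1-116 and 1755 FPKM in light Col-0, and to 903 FPKM in dark bri1-116 and 1833 FPKM in dark Col-0. PIP2 summed to 2229 FPKM in light bri1-116 and 2756 FPKM in Col-0, and to 1493 FPKM in dark bri1-116 and 3173 FPKM in Col-0. PIP1 summed to 1779 FPKM in light bri1-116 and 2145 FPKM in Col-0, and to 1729 FPKM in dark bri1-116 and 2795 FPKM in Col-0. PIP2 had the lowest ratio of the 3 in the dark, 0.471.

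**Figure D2:**
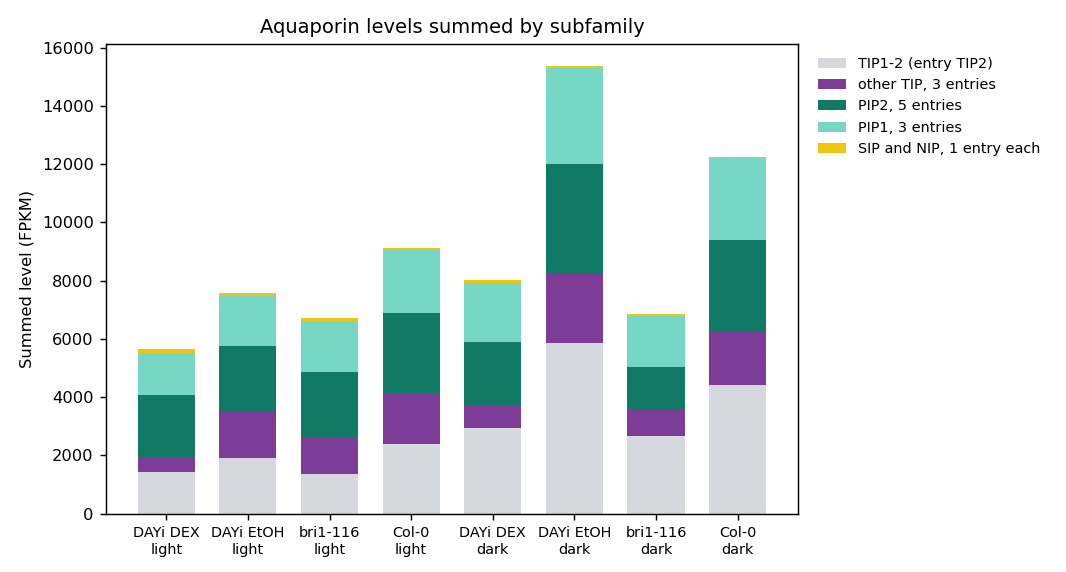
FPKM summed over the aquaporin entries of each subfamily (stacked bars from 0) in the 8 libraries, 1 library per bar. The bars of dark EtOH (15361 FPKM) and dark Col-0 (12265 FPKM) stand above the 6 others, and the purple part, the 3 TIP entries other than TIP2, is smallest in the DEX libraries (513 FPKM in light, 777 FPKM in dark).

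Light-grown DAYi with DEX was compared with EtOH to ask how the family differed where the DAY transcript was low. Of 13 members above 0 FPKM in both libraries, 4 were more than 2-fold lower and 1 more than 2-fold higher, where 16.3% of all entries were lower and 12.1% higher. The median log2 ratio of (FPKM + 1) over the 14 members was -0.15, beside 0 over all entries, and -0.032 with the 12 entries at a member's position included. The tonoplast aquaporin TIP2-1 (AT3G16240, delta-TIP), a channel for water and ammonia, stood at 222 FPKM with DEX against 899 FPKM with EtOH, a log2 ratio of -2.01. TIP1-1 (AT2G36830, gamma-TIP), the abundant vacuolar water channel of expanding cells, stood at 284 against 686 FPKM, a log2 ratio of -1.27. Both vacuolar channels were lower by more than the 2 plasma membrane members beyond 2-fold. PIP1-3 stood at 160 FPKM with DEX against 358 FPKM with EtOH, and PIP2-6 (AT2G39010), found in leaf veins, at 90.3 FPKM against 193 FPKM. PIP2-3 (also named RD28, a drought-induced transcript) was the 1 member higher, at 113 FPKM with DEX against 52.6 FPKM with EtOH, a log2 ratio of 1.09. Its neighbour PIP2-2 stood at 274 FPKM with DEX against 162 FPKM with EtOH.

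These calls depended on how the libraries were scaled. When FPKM were set to shares of the library sum without AT2G01021, the median log2 ratio of entries with at least 1 FPKM in both libraries moved from 0.05 to 0.36, and the members beyond 2-fold became TIP2-1 (lower) and PIP2-2 and PIP2-3 (higher), 1 lower and 2 higher. TIP1-1, PIP1-3 and PIP2-6 then came to 1.94-fold, 1.79-fold and 1.71-fold lower. The share of all entries beyond 2-fold was not computed with this scaling, so these counts have no background beside them. The green tissue markers, 6 photosynthesis genes, summed to 9045 FPKM with DEX against 45601 FPKM with EtOH and were more than 2-fold lower in 6 of 6. Root markers (15 found of 16) summed to 249 FPKM with DEX against 157 FPKM with EtOH, with 1 of 15 higher and 2 lower. Fewer cells of a type and less RNA per cell cannot be told apart in whole seedlings, and the part of tissue make-up in the aquaporin differences was not tested.

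In dark-grown DAYi seedlings, all 14 members were above 0 FPKM in both libraries, 3 were more than 2-fold lower and 2 higher in the library labelled DEX, where 12.2% of all entries were lower and 9.36% higher. The median log2 ratio was -0.83, beside 0 over all entries, and 11 of 14 values were lower. With the 12 entries at a member's position included, the median was -0.16 and the counts were 7 higher and 5 lower. TIP2-1 stood at 149 FPKM in DEX against 1344 FPKM in EtOH, a log2 ratio of -3.17. PIP2-6 stood at 41.4 FPKM in DEX against 247 FPKM in EtOH, a log2 ratio of -2.55. Each was the lowest ratio of its subfamily. TIP1-1 stood at 498 FPKM in DEX against 1006 FPKM in EtOH, a log2 ratio of -1.01. The TIP2 entry, 1.99-fold lower, and PIP2-7, PIP2-1 and PIP1-3, 1.83-fold to 1.87-fold lower, lay just inside the limit, so that at 1.5-fold the count was 8 lower and 2 higher. The share of all entries beyond 1.5-fold was not computed, so this count has no background beside it.

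The 2 members higher in the dark library labelled DEX were a NIP and a seed TIP. NIP1-1 stood at 35.5 FPKM in DEX against 11.0 FPKM in EtOH, a log2 ratio of 1.60. TIP3-2 (AT1G17810, beta-TIP), a tonoplast aquaporin of seed protein storage vacuoles, stood at 130 FPKM in DEX against 19.6 FPKM in EtOH, a log2 ratio of 2.67. Its interval in the tables is shared with AT1G17820, which kept between 4.90 and 6.98 FPKM in the 8 libraries. In light-grown seedlings TIP3-2 stood at 6.25 FPKM with DEX and was listed at 0 with EtOH. The 12 seed markers (storage proteins, oleosins and late embryogenesis genes) summed to 10.5 FPKM in dark DEX against 4.32 FPKM in dark EtOH, and to 33.4 FPKM in light DEX against 0.756 FPKM in light EtOH, with 4 higher and 5 lower in the dark and 6 higher and 0 lower in the light. The markers CRB, CRU3, SESA1, SESA3, OLEO1 and EM1 were listed at 0 in light EtOH and so could not be counted. Of the dark sums, EM6 alone made up 7.49 FPKM in DEX and 1.53 FPKM in EtOH. TIP3-2 was thus highest in the dark DEX library and the seed markers in the light DEX library. Green tissue markers summed to 779 FPKM in dark DEX against 2914 FPKM in EtOH, lower in 5 of 6. Root markers summed to 328 FPKM in dark DEX against 841 FPKM in EtOH, with 6 of 15 higher and 5 lower, and their part in the aquaporin differences was not tested.

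In light-grown bri1-116 seedlings, no member was more than 2-fold lower than in Col-0, and 1 of 14 was higher, where 7.82% of all entries were lower and 6.52% higher. That member was TIP3-2, at 0.0525 FPKM in bri1-116 and 0.0188 FPKM in Col-0, which is about 7 against 1 fragment by the depth estimate, so no difference is read from it. The median log2 ratio was -0.30, beside 0 over all entries, and 9 of 14 values were lower, and it was -0.15 with the 12 position entries. TIP1-1 stood at 595 FPKM in bri1-116 and 793 FPKM in Col-0, and TIP2-1 at 657 FPKM against 962 FPKM. PIP2-6 stood at 263 FPKM in bri1-116 and 217 FPKM in Col-0, the only comparison in which it was not lower. With FPKM as shares of the library sum without AT2G01021, the median of entries moved from -0.05 to 0.35, and PIP2-3, at 107 FPKM in bri1-116 and 68.2 FPKM in Col-0, came to 2.07-fold higher. Green tissue markers summed to 23091 FPKM in bri1-116 and 50007 FPKM in Col-0, lower in 4 of 6, and root markers to 140 FPKM against 160 FPKM, with 0 of 15 higher and 1 lower.

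In dark-grown bri1-116 seedlings, 6 of 14 members were more than 2-fold lower than in Col-0 and 1 was higher, where 9.01% of all entries were lower and 11.2% higher. The median log2 ratio was -0.89, beside 0 over all entries, and 12 of 14 values were lower. With the 12 position entries included, the median was -0.20 and the counts were 3 higher and 7 lower. The plasma membrane members made up 4 of the 6. PIP2-6 stood at 80.0 FPKM in bri1-116 and 238 FPKM in Col-0, a log2 ratio of -1.56. PIP2-7 stood at 478 FPKM in bri1-116 and 1329 FPKM in Col-0, a log2 ratio of -1.47. PIP1-3 stood at 302 FPKM in bri1-116 and 816 FPKM in Col-0, a log2 ratio of -1.43. PIP1-1 lay just past the limit, at 316 FPKM in bri1-116 and 640 FPKM in Col-0, 2.02-fold lower. In the vacuolar membrane TIP2-1 stood at 509 FPKM in bri1-116 and 1100 FPKM in Col-0, a log2 ratio of -1.11. TIP1-1 stood at 390 FPKM in bri1-116 and 710.3 FPKM in Col-0. TIP3-2 stood at 4.82 FPKM in bri1-116 and 22.9 FPKM in Col-0, the opposite direction to that of dark DAYi.

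NIP1-1 was the 1 member higher in dark bri1-116, at 25.1 FPKM against 6.52 FPKM in Col-0, 3.85-fold. NIP1-1 was above its control in all 4 comparisons, as was PIP2-3, and 8 members were below theirs in all 4. The same count over all entries was not made. With FPKM as shares of the library sum without AT2G01021, PIP1-1, PIP1-2 and PIP2-7 came to lie above both light controls. PIP2-1 then lay above its control in light DAYi, and PIP1-3 in light bri1-116. With the exchanged labels that the genotype field gives, every dark direction between bri1-116 and Col-0 turns round, and the median becomes 0.89. Green tissue markers summed to 7430 FPKM in dark bri1-116 and 2558 FPKM in Col-0, higher in 6 of 6. Root markers summed to 154 FPKM against 603 FPKM, with 6 of 15 higher and 8 lower. Seed markers summed to 19.1 FPKM in dark bri1-116 and 8.53 FPKM in Col-0, while TIP3-2 was lower, and the part of tissue make-up was not tested.

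**Figure D3:**
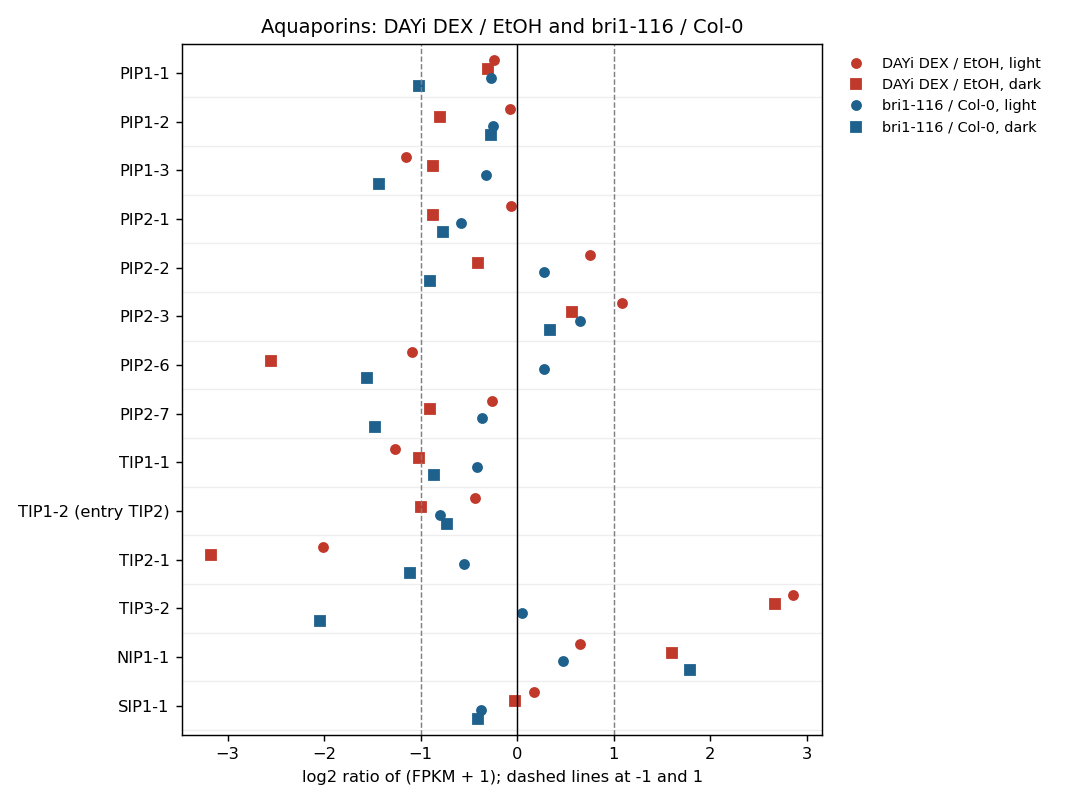
Log2 ratio of (FPKM + 1) for each aquaporin entry in DAYi DEX over EtOH (red) and bri1-116 over Col-0 (blue), circles for light and squares for dark, with no replicate and dashed lines at 2-fold. TIP2-1 and PIP2-6 reach -3.17 and -2.55 in dark DAYi, NIP1-1 lies right of 0 in all 4, and the TIP3-2 circle for DAYi rests on a library at 0.

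TIP2-1 and PIP2-6 were the 2 members more than 2-fold lower in 3 of the 4 comparisons. TIP2-1 shares its interval in the tables with NDF4 (AT3G16250), a gene of the chloroplast NDH complex, which stood at 5.16 FPKM in light DEX against 105 FPKM in light EtOH and at 0.856 FPKM in dark DEX against 6.89 FPKM in dark EtOH. NDF4 stood at 42.0 FPKM in light bri1-116 and 89.0 FPKM in light Col-0, and at 35.6 FPKM in dark bri1-116 and 5.57 FPKM in dark Col-0. It was lower where TIP2-1 was lower in 3 of the 4 comparisons and higher in dark bri1-116, and the part of reads shared between these neighbours was not tested. The 250 bases before the annotated starts of both members are shown so that they can be read beside their shared direction. They were searched on both strands for the G-box CACGTG, for the brassinosteroid response elements CGTGTG and CGTGCG and for the E-box CANNTG, which includes the G-box. Of 27443 promoters of this length, 6.49% held the G-box, 5.37% held CGTGTG, 1.57% held CGTGCG and 55.3% held the E-box. TIP2-1 held 1 E-box, beginning 45 bases before the start and set in capitals, and PIP2-6 held none of the 4. Among the 35 members 0 promoters held the G-box, 1 (NIP3-1) CGTGTG, 0 CGTGCG and 19 the E-box. A match is only a description of the letters.
TIP2-1 (chr3:5505110-5505359, plus strand): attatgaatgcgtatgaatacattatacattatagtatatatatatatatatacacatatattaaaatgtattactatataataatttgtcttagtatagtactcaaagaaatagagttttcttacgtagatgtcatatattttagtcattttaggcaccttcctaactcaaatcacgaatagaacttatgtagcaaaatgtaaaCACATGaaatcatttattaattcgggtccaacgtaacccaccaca
PIP2-6 (chr2:16291030-16291279, plus strand): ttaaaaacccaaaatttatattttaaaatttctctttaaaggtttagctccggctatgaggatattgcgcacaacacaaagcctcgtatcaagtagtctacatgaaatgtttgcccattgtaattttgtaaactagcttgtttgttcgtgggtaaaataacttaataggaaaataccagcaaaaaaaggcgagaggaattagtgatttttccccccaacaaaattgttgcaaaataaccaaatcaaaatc

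The controls give the only view of how far comparable libraries lay apart, although they differ in genotype and treatment. Between DAYi EtOH and Col-0, 0 of 13 members in the light and 0 of 14 in the dark were beyond 2-fold, where 1.96% of all entries were higher and 2.18% lower in the light, and 2.19% higher and 2.22% lower in the dark. Their log2 ratios ran from -0.45 to 0.03 in the light and from -0.21 to 0.68 in the dark. In the light 12 of 14 members were lower in EtOH than in Col-0, and in the dark 13 of 14 were higher. NIP1-1 was the farthest apart in the dark, at 11.0 FPKM in EtOH against 6.52 FPKM in Col-0. The dark part of this comparison rests on the title of the Col-0 library. With the exchanged labels, the family sum of 15361 FPKM in dark EtOH would be set against 6844 FPKM in place of 12265 FPKM. The control comparison was not counted with the exchanged labels.

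Light-grown seedlings of 9 days were set against dark-grown seedlings of 5 days within each genotype, across tables that may have been scaled apart. In DAYi with EtOH 5 of 13 members were more than 2-fold lower in the light and 1 higher, where 19.8% of all entries were lower and 21.2% higher. In Col-0 2 of 14 were lower and 1 higher, where 19.1% were lower and 22.9% higher. In bri1-116 1 of 14 was lower and 2 higher, where 12.7% were lower and 15.3% higher. In DAYi with DEX 4 of 14 were lower and 1 higher, where 13.2% were lower and 14.9% higher. With the dark labels exchanged, bri1-116 had 5 lower and 2 higher and Col-0 had 1 lower and 3 higher. The share of all entries was not computed for this exchange.

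PIP2-2, the TIP2 entry and TIP3-2 were lower in the light in all 4 pairs. PIP2-2 stood at 274 FPKM in light DEX against 653 FPKM in dark DEX, and at 270 FPKM in light bri1-116 against 348 FPKM in dark bri1-116. It stood at 162 FPKM in light EtOH against 866 FPKM in dark EtOH, and at 222 FPKM in light Col-0 against 652 FPKM in dark Col-0. Its close neighbour PIP2-3 was higher in the light in all 4, at 113 against 73.3 FPKM for DEX, 107 against 50.1 FPKM for bri1-116, 52.6 against 48.9 FPKM for EtOH and 68.2 against 39.2 FPKM for Col-0. PIP2-2 was therefore 2.42 to 3.26 times as abundant as PIP2-3 in the light libraries and 6.94 to 17.7 times as abundant in the dark ones, a ratio that rests on how shared reads were divided.

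NIP1-1, PIP2-1 and SIP1-1 were also higher in the light in all 4 pairs. NIP1-1 stood at 28.9 FPKM in light Col-0 against 6.52 FPKM in dark Col-0 and at 29.6 FPKM in light EtOH against 11.0 FPKM in dark EtOH, beyond 2-fold in both. In the mutant or DEX-treated seedlings it stood at 47.0 FPKM in light DEX against 35.5 FPKM in dark DEX, and at 40.4 FPKM in light bri1-116 against 25.1 FPKM in dark bri1-116. PIP2-6 had the reverse arrangement, more than 2-fold higher in the light with DEX and in bri1-116, and at 193 against 247 FPKM in EtOH and 217 against 238 FPKM in Col-0. TIP3-2 reached 4.82 to 130 FPKM in dark seedlings and 6.25 FPKM or less in light seedlings. These differences between pairs were not tested, since each rests on 1 library per condition.

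**Figure D4:**
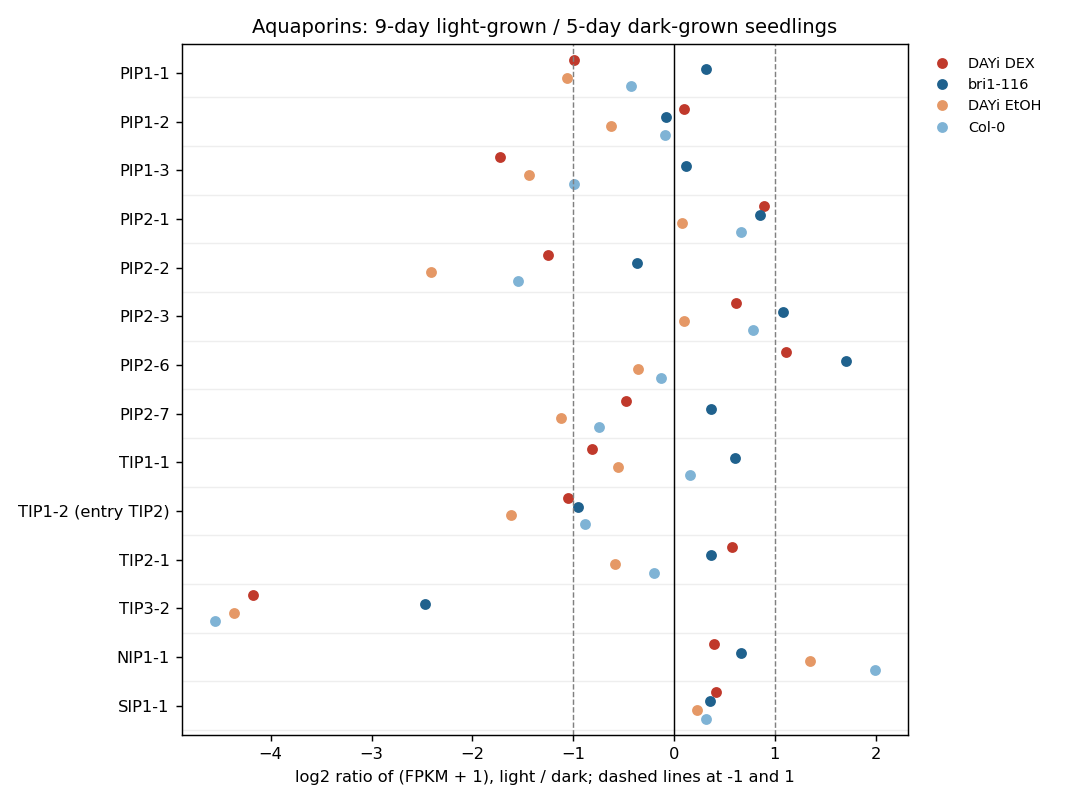
Log2 ratio of (FPKM + 1), light over dark, for each aquaporin entry in DAYi DEX, bri1-116, DAYi EtOH and Col-0, with no replicate and dashed lines at 2-fold. PIP2-2 lies left of 0 and PIP2-3 right of 0 in all 4, and PIP2-6 lies past 1 only in DAYi DEX and bri1-116.

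The 12 entries at an untagged member's position bear a shortened name, so their identity is less sure. For TIP3-1, TIP4-1, TIP5-1, NIP3-1, NIP5-1, NIP6-1 and NIP7-1 no other RefSeq gene has that shortened name. For PIP1-5, PIP2-4 and NIP4-2 another aquaporin has it, and the NIP1 and NIP2 entries are tagged as NEP-interacting proteins. NIP5-1 (AT4G10380), the boric acid channel of roots, stood at 57.8 FPKM in light DEX against 12.6 FPKM in light EtOH and at 27.6 FPKM in dark DEX against 10.5 FPKM in dark EtOH. It stood at 14.3 FPKM in light bri1-116 and 9.88 FPKM in light Col-0, and at 15.8 FPKM in dark bri1-116 and 9.97 FPKM in dark Col-0. It was thus more than 2-fold higher in both DAYi comparisons and in neither bri1-116 comparison.

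NIP6-1 (AT1G80760), the boric acid channel of shoot nodes, went the other way in DAYi. It stood at 3.41 FPKM in light DEX against 20.5 FPKM in light EtOH and at 0.302 FPKM in dark DEX against 1.32 FPKM in dark EtOH. It stood at 11.2 FPKM in light bri1-116 and 23.7 FPKM in light Col-0, 2.12-fold lower, and at 2.24 FPKM in dark bri1-116 and 1.83 FPKM in dark Col-0. Its interval is shared with AT1G80750, which kept between 33.8 and 110 FPKM. NIP6-1 was higher in the light in all 4 pairs, from 5.01-fold in bri1-116 to 15.5-fold in EtOH.

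TIP4-1 (AT2G25810), a root tonoplast channel, stood at 28.3 FPKM in dark DEX against 8.98 FPKM in dark EtOH and at 12.3 FPKM in dark bri1-116 and 5.47 FPKM in dark Col-0. It was more than 2-fold higher in both dark comparisons and in neither light one, where it stood at 26.1 FPKM in DEX against 18.6 FPKM in EtOH and at 24.9 FPKM in bri1-116 and 20.5 FPKM in Col-0. The entry at NIP2-1 stood at 53.2 FPKM in dark DEX against 24.6 FPKM in dark EtOH and between 8.77 and 21.1 FPKM in the 6 other libraries. The entry at NIP3-1 kept between 2.70 FPKM (light bri1-116) and 16.9 FPKM (dark DEX) and was lower in the light in all 4 pairs.

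The entry at PIP1-5 stood at 178 FPKM in light DEX against 255 FPKM in light EtOH, and at 22.2 FPKM in dark DEX against 77.5 FPKM in dark EtOH. It stood at 192 FPKM in light bri1-116 and 274 FPKM in light Col-0, and at 54.7 FPKM in dark bri1-116 and 70.5 FPKM in dark Col-0. It was more than 2-fold higher in the light in all 4 pairs, unlike any of the 3 PIP1 entries found by tag. The entry at PIP2-4 stood at 7.17 FPKM in light DEX against 27.3 FPKM in light EtOH and between 8.31 and 31.4 FPKM in the 6 other libraries. TIP3-1, the seed-specific partner of TIP3-2, reached at most 1.94 FPKM (light DEX), and TIP5-1, NIP4-2 and NIP7-1, known from pollen and anthers, at most 0.318, 0.635 and 0.819 FPKM. The 4 pollen markers were below 1 FPKM in every library. The entry at NIP1-2 was listed at 0 in all 8.

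**Figure D5:**
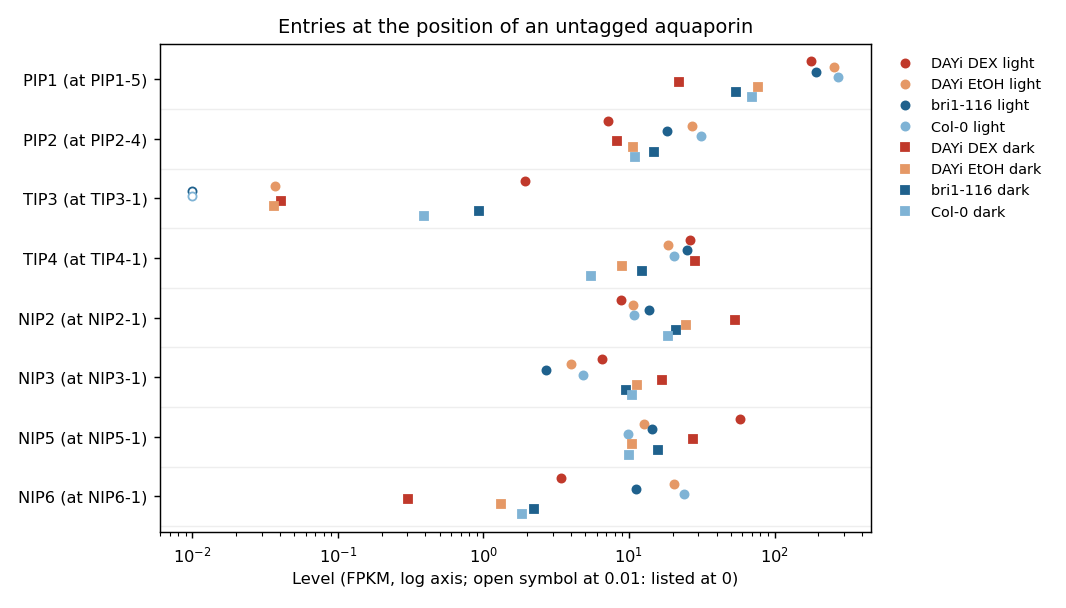
Level (FPKM, log axis) of the 8 entries that lie at the position of an untagged aquaporin and reach 1 FPKM, in the 8 libraries, circles for light and squares for dark, with no replicate. The NIP5 entry is highest in the DEX libraries (57.8 FPKM in light, 27.6 FPKM in dark) and the NIP6 entry lowest there among libraries of the same light (3.41 and 0.302 FPKM).

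The 17 vacuolar proton pump genes, which energise the membrane in which the TIPs sit, had 0 members beyond 2-fold in any of the 8 comparisons, and their median log2 ratio was 0.43 in light DAYi, 0.03 in dark DAYi, -0.08 in light bri1-116 and -0.19 in dark bri1-116. Of 11 genes for PIP trafficking, turnover and phosphorylation, 1 was higher and 0 lower in light DAYi, 0 and 0 in dark DAYi, 1 and 1 in light bri1-116 and 0 and 1 in dark bri1-116. TSPO (AT2G47770), a membrane protein that delivers PIP2-7 to autophagy, was the 1 higher in both light comparisons, at 2.28 FPKM in DEX against 0.156 FPKM in EtOH and at 1.02 FPKM in bri1-116 and 0.238 FPKM in Col-0. These light values are low, those of the controls near 0, and the fragments behind them were not estimated. TSPO was also the 1 lower in dark bri1-116, at 4.31 FPKM against 9.06 FPKM in Col-0. It stood at 3.96 FPKM in dark DEX against 7.81 FPKM in dark EtOH, so it was lower in both dark comparisons. Of the 3 boron exporters, of which BOR1 works beside NIP5-1 in roots, 2 were higher in each DAYi comparison and 0 in either bri1-116 comparison. Of all entries, 12.1% were higher and 16.3% lower in light DAYi, and 9.36% higher and 12.2% lower in dark DAYi. In bri1-116, 6.52% were higher and 7.82% lower in the light, and 11.2% higher and 9.01% lower in the dark. Between light and dark, 12.7% to 22.9% of all entries were beyond 2-fold in each direction. The 2 boron exporters higher in DAYi were BOR2 and BOR4 in the light, and BOR1 and BOR2 in the dark. BOR2 (AT3G62270) stood at 69.7 FPKM in light DEX against 18.5 FPKM in light EtOH and at 46.8 FPKM in dark DEX against 14.2 FPKM in dark EtOH. BOR1 (AT2G47160) stood at 100.1 FPKM in dark DEX against 27.3 FPKM in dark EtOH. In the light it stood at 30.7 FPKM in DEX against 16.5 FPKM in EtOH, not beyond 2-fold. BOR4 (AT1G15460) was low, at 1.68 FPKM in light DEX against 0.740 FPKM in light EtOH.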

How the data were processed

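RNA-Seq libraries of whole seedlings (TruSeq stranded mRNA, NextSeq500, 1 library per condition) were processed by the authors, who aligned reads to TAIR10. The submitters' processing notes name CASAVA 1.8.2, TopHat2 2.0.13 and Cuffdiff 2.2.0. The deposited values used here are FPKM per gene, as the authors computed them with Cuffdiff, in 4 full tables of 26987 entries. Whether fragments were counted by strand, and whether the tables were scaled together, is not given in the sources used here. The tables also hold the authors' fold changes, p-values and q-values, which were not used, nor were 12 shorter sheets of selected rows.

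The 35 members were matched by locus tag, and the members and gene lists were chosen with earlier results of these data known. A member above 0 FPKM in both libraries was counted when its ratio passed 2-fold, and log2 ratios used FPKM + 1. With 1 library per condition no test was possible. Values in every library were given for members with at least 5 FPKM in 1 or more libraries, log2 ratios for members beyond 2-fold within a table, and promoters for members beyond 2-fold in the same direction in 3 or more of 4 comparisons. A few further ratios were named after their values were seen. Proteins were not printed.

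RefSeq TAIR10.1 gave sequences and positions. Of 26300 entries with a single tag in RefSeq, 26296 overlapped the RefSeq gene on the same chromosome. Depth was estimated from 2671 intronless genes, where 48.0% to 84.9% of low values came out whole within 0.15, against 30% for evenly spread values, so it is an estimate only. Alternatives were a 1.5-fold limit, a filter at 1 FPKM, a pseudocount of 0.1 FPKM, genes at 0 counted, other scalings and exchanged dark labels. The counting and depth scripts were tested on simulated data. Analyses used Python 3.11.15, numpy 2.4.6, pandas 2.3.3 and matplotlib 3.10.9.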

Additional observations from a re-analysis of the deposited data

Results flagged for a closer look

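The ratio of TIP3-2, the seed tonoplast aquaporin, in bri1-116 over Col-0 lay above 1 in the light and below 1 in the dark. In the light the ratio was 2.78, from 0.0525 FPKM in bri1-116 and 0.0188 FPKM in Col-0, and in the dark it was 0.211, from 4.82 FPKM in bri1-116 and 22.9 FPKM in Col-0. The light ratio rests on an estimated 7 fragments in bri1-116 against 1 in Col-0, so no direction is read from it, and the dark ratio on an estimated 582 against 1704. The difference between the 2 ratios was not tested, and with the exchanged dark labels the dark direction turns round.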

How the results depend on the processing

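No paired analysis was possible because each condition has 1 library, and for the same reason no replicate could be left out. Of 35 counts under the alternatives set at the outset, 28 stayed within 1.5 times. Each count adds members higher and lower, so a change of direction goes unseen. With the dark labels exchanged, dark bri1-116 went from 1 higher and 6 lower to 6 higher and 1 lower and still counted as unchanged. The 28 include 8 counts with median-ratio scaling, which changed no member level by more than 2.85%. The share of all entries was not computed under any of these alternatives. Scaled to the library sum without AT2G01021, the count beyond 2-fold was 3 in light DAYi and 2 in light bri1-116. With a 1.5-fold limit, for which no share of all entries was computed, it was 10 in dark DAYi, 3 in light bri1-116 and 11 in dark bri1-116. With at least 1 FPKM in either library it was 0 in light bri1-116. With the dark labels exchanged, the median log2 ratio of dark bri1-116 was 0.89 and the light against dark count of bri1-116 was 7. Of 36 log2 ratios of members, 4 moved by 0.1 or more with a pseudocount of 0.1 FPKM, 3 of TIP3-2 and that of NIP1-1 in dark bri1-116 (1.93). Median-ratio scaling shifted the log2 ratios within a table by at most 0.043, less than this limit of 0.1. That 0 ratios moved with it was therefore fixed in advance and says nothing on how firm they are.

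Further alternatives were chosen after seeing the data. With the 12 entries at a member's position included, counts were 10 in light DAYi, 12 in dark DAYi and 2 in light bri1-116, and light against dark 12 for DEX, 8 for bri1-116, 13 for EtOH and 9 for Col-0. The medians were then -0.032 in light DAYi, -0.16 in dark DAYi, -0.15 in light bri1-116 and -0.20 in dark bri1-116. Without the TIP2 entry the TIP share of the family sum was 12.1% in light DEX against 28.0% in light EtOH, 23.4% in light bri1-116 against 26.0% in light Col-0, 15.3% in dark DEX against 25.0% in dark EtOH and 21.5% in dark bri1-116 against 23.3% in dark Col-0. With it the share was 34.3% to 53.6%. The cause of these movements was not tested, beyond the entries each alternative adds or leaves out. The light TIP3-2 values of bri1-116 and Col-0 rest on an estimated 7 and 1 fragments, and no between-plant error is known for any value.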
